A study of Mus musculus with 6 samples.

Results

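The interleukin-6 family of cytokines and its signalling chain were followed through 10 genes of cultured mouse vascular smooth muscle cells, out of 24970 rows in the deposited table. The genes were taken by name. They are the ligands Il6, Il11, Lif and Ctf1, the receptor chains Il6st, Il6ra, Osmr and Lifr, and the effectors Stat3 and Socs3. All 10 had a row, and 8 reached a mean of 1 FPKM over the 6 samples and were tested. The unit of the table, FPKM, divides fragments by gene length and by the mapped fragments of the library, so that levels of different genes can be set side by side per length. Il11 and Ctf1 lay under that mean and are given as values.

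The samples were primary smooth muscle cells freed with collagenase from C57BL/6 male mice (the protocol writes 12*6-week-old, read here as 12 mice aged 6 weeks). They were grown in α-MEM with 10% serum, which the labels call Normal Growth Medium. No label mentions a cytokine added to the cells. Cells of 3 samples received siScrambled, a control siRNA, and cells of 3 samples received siPFKFB3, siRNA against Pfkfb3, both at 20 nM with a lipid reagent, and the titles give 48 h. The enzyme Pfkfb3 makes a sugar phosphate that speeds glycolysis. The design text sets cells depleted of Pfkfb3 against control cells. Titles set the groups. The genotype labels call the controls WT and, of the siPFKFB3 samples, name PFKFB3, PFKFB4 and PFKFB5 for replicates 1, 2 and 3. No source used here says whether the samples of a group came from separate mice, so the p-values cover the spread among these samples alone, and that spread may be technical.

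Cytokines of this family signal through gp130, the membrane protein encoded by Il6st. Interleukin-6 and interleukin-11 first bind a chain of their own (Il6ra, Il11ra1) and then bring gp130 molecules together, whereas leukaemia inhibitory factor (Lif) and cardiotrophin-1 (Ctf1) join gp130 to the Lifr chain, and oncostatin M joins it to Osmr. Jak kinases bound to these chains phosphorylate Stat3, which enters the nucleus and switches on genes that include Socs3, an inhibitor that binds gp130 and ends the signal. Smooth muscle cells of the artery wall are a known source of interleukin-6.

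Short stretches of promoter show where NF-kB, AP-1 or C/EBP-like letters lie upstream of RefSeq starts of Il6, Lif and Il11, and STAT letters upstream of that of Socs3. The letters of 5 short motifs were searched for on both strands in the 250 bases before each RefSeq start (GRCm38.p6), and all 10 genes had at least 1 of 12 promoters. An NF-kB motif (GGGA, a pair of free bases, TTCC) was found in 1 member, Il6, and in 1.21% of 32851 promoters of all genes. TGANTCA, the letters bound by AP-1, was found in Il6, Lif and Il11, and in 6.75% of all promoters. TTGCNNAA, a C/EBP-like motif, was found in Il6 and in 9.56% of all promoters, and TTCNNNGAA, the STAT motif, in Socs3 and in 7.02%. No member promoter held TATAAA, present in 12.4% of all. Each line below is read 5′ to 3′ on the strand of the gene, with the match in capitals; the C/EBP-like match lies on the opposite strand.
Il6, NF-kB letters, chr5:30013060-30013089, plus strand: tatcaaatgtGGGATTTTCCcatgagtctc
Il6, C/EBP-like letters, chr5:30012975-30013004, plus strand: acgacgtcacaTTGTGCAAtcttaataagg
Il6, AP-1 letters, chr5:30012864-30012893, plus strand: cTGAGTCActtttaaagaaaaaaaagaaga
Lif, AP-1 letters, chr11:4257329-4257358, plus strand: ccagtcagctgTGACTCAggccatagtggc
Il11, AP-1 letters, chr7:4778221-4778250, minus strand: aggagggagggTGAGTCAggatgtgtcagg
Socs3, STAT letters, chr11:117969501-117969530, minus strand: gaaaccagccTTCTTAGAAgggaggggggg
The RefSeq starts used for Il11 and Socs3 lie inside the GENCODE intervals given for these genes below, and so do their windows. The matches describe the sequence alone and say nothing of binding in these cells.

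Of the 8 tested members 1 rose in siPFKFB3, Lifr, and 0 fell, where 36.3% of 11240 tested genes were called. The call is a Benjamini-Hochberg adjusted p under 0.05 over all tested genes, from limma on log2(FPKM + 1), and every log2 fold change is the siPFKFB3 mean minus the siScrambled mean on this scale, where low genes appear to change less than they do. By direction, 15.8% of tested genes were called higher and 20.5% lower. At an unadjusted p under 0.05 limma gave 1 member higher and 0 lower as well. The median absolute log2 fold change was 0.075 over the 8 members and 0.138 over all tested genes. The largest change by size among the 8 tested members, 0.20 for Il6, was exceeded by that of 36.0% of tested genes and did not pass the test. On the same scale Il11 and Ctf1, which were not tested here, differed by 0.27 and 0.23. The targeted gene, Pfkfb3, read 4.03, 4.02 and 3.86 FPKM in siScrambled against 1.92, 1.65 and 1.77 FPKM in siPFKFB3, and fell by 0.84 on the log2 scale.

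**Figure D1:**
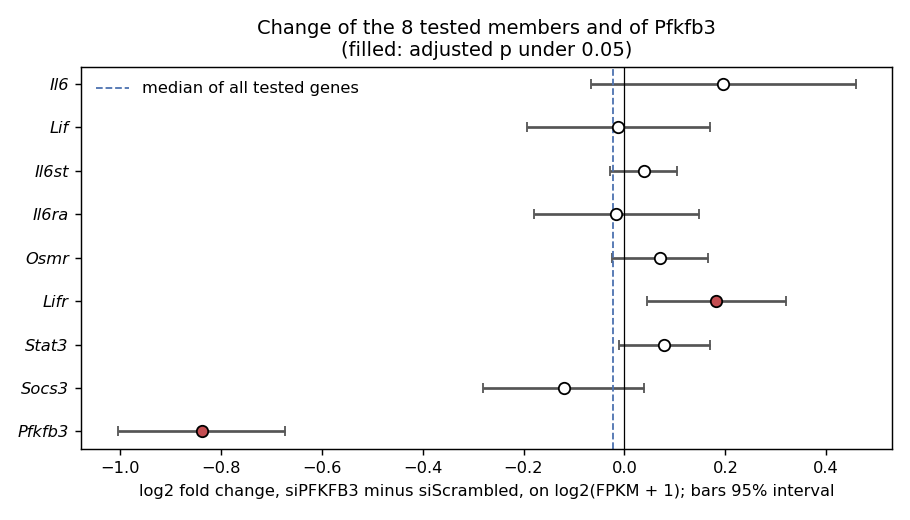
Log2 fold change on log2(FPKM + 1) (horizontal axis) of the 8 tested members and of Pfkfb3, with 95% intervals from limma as bars; filled points passed adjusted p under 0.05 and the dashed line is the median of all tested genes, −0.02. Among the members only the interval of Lifr, 0.04 to 0.32, leaves out 0, and Pfkfb3 lies far to the left of all members.

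In level the members ran from 137 FPKM for Il6st to 0.58 FPKM for Il11, as means over the 6 samples. Il6st, the shared chain, stood 382nd from the top of 22036 Ensembl genes. Stat3 (59.5 FPKM) and Osmr (49.7 FPKM) followed, then Socs3 (11.4 FPKM), Lifr (7.04 FPKM) and Il6 (4.64 FPKM). Lif (2.65 FPKM) and Il6ra (2.59 FPKM) did not separate, since the highest Il6ra sample lay above the lowest Lif sample, and neither did Ctf1 (0.89 FPKM) and Il11. Every other pair of neighbours in this order was apart in all 6 samples. RNA of the shared chain was thus present at 52.9 times the level of RNA of the chain specific to interleukin-6, per length.

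**Figure D2:**
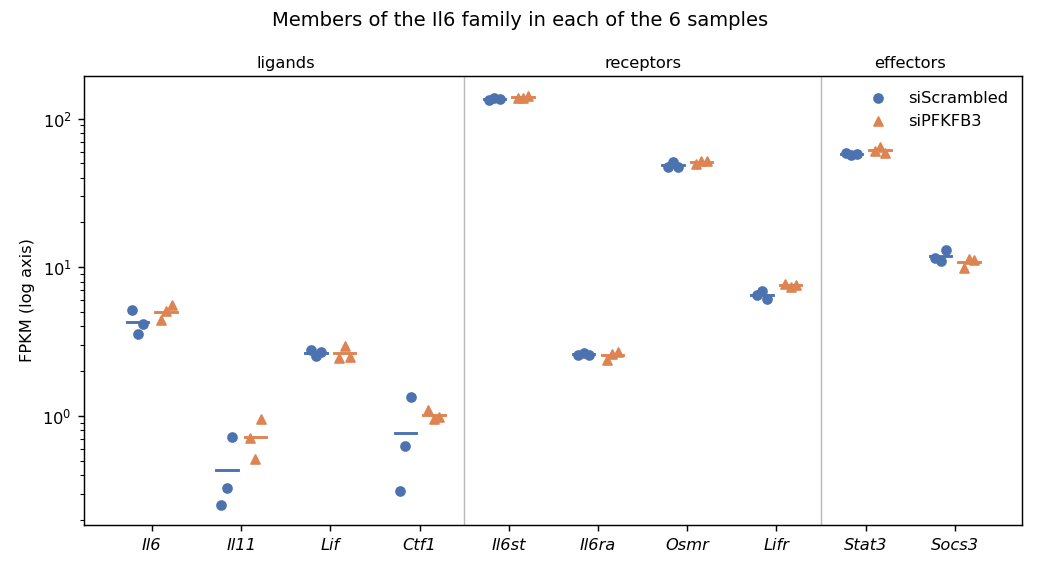
FPKM (vertical axis, log scale) of each member in the 3 siScrambled (circles) and 3 siPFKFB3 (triangles) samples, replicates 1 to 3 from left to right, with a line at each group mean. Il6st, at 133 to 141 FPKM, is the highest member and Il11, under 1 FPKM, has the lowest mean in both groups.

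Among the ligands, Il6 (chromosome 5, 30013114 to 30019981, plus strand, ENSMUSG00000025746; GENCODE M21, GRCm38) was the highest. Its siScrambled replicates 1 to 3 read 5.13, 3.56 and 4.13 FPKM, and its siPFKFB3 replicates 1 to 3 read 4.39, 5.05 and 5.60 FPKM (values of the other genes follow in the same order). The groups overlap, with siScrambled replicate 1 above 2 of the siPFKFB3 samples. Group means were 4.27 ± 0.794 and 5.01 ± 0.605 FPKM (SD, n = 3 each), and the log2 fold change of 0.20 ± 0.12 (SE; 95% interval −0.07 to 0.46) did not pass (limma, adjusted p = 0.224). Without siScrambled replicate 1 the change was 0.31 (limma, adjusted p = 0.0521), and without siScrambled replicate 2 or siPFKFB3 replicate 3 it was 0.10 or 0.13 (limma, adjusted p = 0.551 and 0.488). The size of the difference thus rests on single libraries.

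Lif (chromosome 11, 4257557 to 4272514, plus strand, ENSMUSG00000034394), which signals through Lifr and gp130, stood at 2.76, 2.53 and 2.69 FPKM in siScrambled and at 2.47, 2.95 and 2.48 FPKM in siPFKFB3. The siPFKFB3 samples hold both the highest and the lowest value. The log2 fold change of −0.01 (95% interval −0.19 to 0.17; limma, adjusted p = 0.926) changed sign between scalings (0.022 after quantile normalization).

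Il11 (chromosome 7, 4772373 to 4782859, minus strand, ENSMUSG00000004371), a cytokine studied in fibroblasts and smooth muscle for its part in fibrosis, was the lowest member. It stood at 0.254, 0.329 and 0.723 FPKM in siScrambled and at 0.709, 0.511 and 0.953 FPKM in siPFKFB3. One siScrambled sample, replicate 3, lay among the siPFKFB3 samples. In siPFKFB3 its mean reached 166% of that in siScrambled, where the SD was 57.8% of the mean, and the exact two-sided permutation test of mean FPKM gave p = 0.3, where 3 against 3 samples cannot go below 0.1. Tested with all genes above 0 in any sample, it changed by 0.27 (limma, adjusted p = 0.288).

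Ctf1 (chromosome 7, 127712736 to 127718192, plus strand, ENSMUSG00000042340), cardiotrophin-1, stood at 0.314, 0.632 and 1.35 FPKM in siScrambled and at 1.09, 0.959 and 0.979 FPKM in siPFKFB3. Here the control samples spanned a wider range than the siPFKFB3 samples and enclosed all of them (exact permutation test, two-sided, p = 0.5). Exons of Ctf1 overlap those of Ctf2 on the opposite strand, and no source used here says whether reads were counted by strand, so its value is uncertain.

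**Figure D3:**
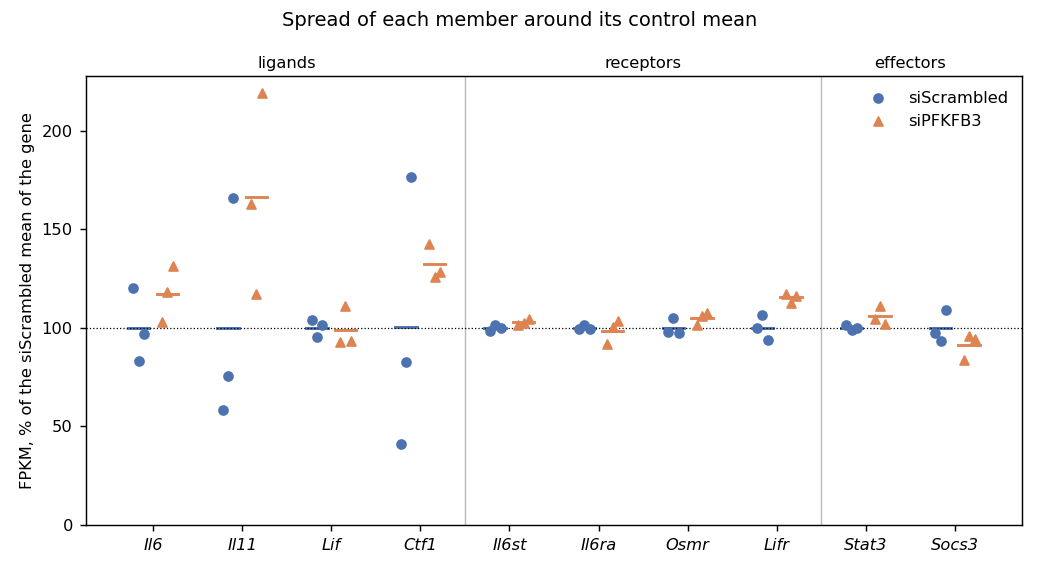
FPKM of each member in every sample as a percentage of the siScrambled mean of the same gene (vertical axis, from 0), siScrambled as circles and siPFKFB3 as triangles, with group means as lines. Il11 and Ctf1 scatter widely in siScrambled (SD 57.8% and 69.2% of the mean), while Il6st stays within a few percent of 100 in all 6 samples.

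Among the receptor chains Lifr moved and the rest did not pass the test. Lifr (chromosome 15, 7090614 to 7197489, plus strand, ENSMUSG00000054263), the partner of gp130 for Lif and Ctf1, stood at 6.52, 6.96 and 6.13 FPKM in siScrambled and at 7.67, 7.36 and 7.60 FPKM in siPFKFB3. All 3 siPFKFB3 samples lay above all 3 controls; groups that do not overlap were found for 2 of the 8 tested members and for 49.5% of all tested genes (siPFKFB3 above in 21.8%, below in 27.7%). The mean rose from 6.54 ± 0.415 to 7.54 ± 0.159 FPKM (SD, n = 3 each), a log2 fold change of 0.18 ± 0.06 (SE; limma, adjusted p = 0.0434), with an exact permutation p of 0.1, the smallest possible. This call is close to the threshold and was lost in 8 of 16 alternatives, among them without siScrambled replicate 1 or 3 (limma, adjusted p = 0.0922 and 0.143), without siPFKFB3 replicate 1, 2 or 3 (0.107, 0.0675 and 0.103) and with lower filters on low values (0.0514 and 0.0616).

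Il6st (chromosome 13, 112464070 to 112510086, plus strand, ENSMUSG00000021756) stood at 133, 137 and 135 FPKM in siScrambled and at 137, 138 and 141 FPKM in siPFKFB3. The groups overlap by a narrow margin. With a log2 fold change of 0.04 ± 0.03 (SE; 95% interval −0.03 to 0.11; limma, adjusted p = 0.344) it had the tightest interval of the tested members. Osmr (chromosome 15, 6813577 to 6874969, minus strand, ENSMUSG00000022146), the gp130 partner for oncostatin M, stood at 47.4, 50.8 and 47.3 FPKM in siScrambled and at 49.2, 51.5 and 52.1 FPKM in siPFKFB3. The siScrambled replicate 2 lay among the siPFKFB3 samples, and the log2 fold change was 0.07 (95% interval −0.03 to 0.17; limma, adjusted p = 0.233). Il6ra (chromosome 3, 89864059 to 89913196, minus strand, ENSMUSG00000027947), which binds interleukin-6, stood at 2.59, 2.64 and 2.59 FPKM in siScrambled and at 2.39, 2.61 and 2.70 FPKM in siPFKFB3. The siPFKFB3 samples enclose the controls, the log2 fold change was −0.02 (95% interval −0.18 to 0.15; limma, adjusted p = 0.882), and an antisense gene overlaps its exons.

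Set against each other per length, Osmr exceeded Lifr by 7.27, 7.30 and 7.71 times in siScrambled and by 6.42, 6.99 and 6.86 times in siPFKFB3 replicates 1 to 3. RNA of Osmr, the chain used by oncostatin M, was therefore above that of Lifr in every sample, by less in the siPFKFB3 samples. Lifr amounted to 4.84% of Il6st in siScrambled and 5.44% in siPFKFB3, as means of the per-sample ratios. These ratios are descriptions and carry no test.

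Of the effectors, Stat3 (chromosome 11, 100885098 to 100939540, minus strand, ENSMUSG00000004040) stood at 58.7, 57.1 and 57.7 FPKM in siScrambled and at 60.5, 64.2 and 58.8 FPKM in siPFKFB3. The siPFKFB3 samples lay above the controls by a small margin. The log2 fold change of 0.08 ± 0.04 (SE; 95% interval −0.01 to 0.17) did not pass (limma, adjusted p = 0.155) and was 0.04 without siPFKFB3 replicate 2 (limma, adjusted p = 0.432), and exons of Stat3 overlap those of Stat5a on the opposite strand. Socs3 (chromosome 11, 117966079 to 117970047, minus strand, ENSMUSG00000053113), the feedback inhibitor whose STAT letters are shown above, stood at 11.6, 11.1 and 13.0 FPKM in siScrambled and at 9.96, 11.4 and 11.2 FPKM in siPFKFB3. Of the siPFKFB3 samples 2 lay within the control range and 1 below it. The log2 fold change was −0.12 ± 0.07 (SE; 95% interval −0.28 to 0.04; limma, adjusted p = 0.220), and it was −0.06 without siScrambled replicate 3 and −0.06 without siPFKFB3 replicate 1 (limma, adjusted p = 0.561 and 0.539). RNA levels of Stat3 do not measure its phosphorylation, which these data do not hold.

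The rest of the pathway was read from 6 lists of textbook members, targets and regulators, 82 genes of which 66 were tested. Of these 10 rose and 14 fell, 36.4% of those tested, near the 36.3% of all tested genes, with a median log2 fold change of −0.03 beside −0.02 for all. Among other ligands limma called 0 of 1 tested gene, and 0 at an unadjusted p under 0.05. Clcf1, a ligand of the receptor that also binds ciliary neurotrophic factor, went from 5.67 ± 0.682 to 5.66 ± 0.544 FPKM (SD, n = 3 each; limma, adjusted p = 0.999), and Cntf, which encodes that factor, stood at 0.472 to 0.948 FPKM in siScrambled and at 0.789 to 0.994 FPKM in siPFKFB3, under the mean needed for a test. Exons of Cntf overlap those of Zfp91 on the same strand, and exons of Clcf1 those of AC109138.7 on the same strand. Counting by strand would not separate these genes, so both values are uncertain. Oncostatin M (Osm), the ligand of Osmr, was listed at 0 in all 6 samples, as were Ebi3 and Il31.

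Both tested receptor chains outside the 10 members fell, where 20.5% of all tested genes were called lower. Il11ra1 (chromosome 4, 41699989 to 41769474, plus strand, ENSMUSG00000073889), the chain that binds interleukin-11, stood at 48.0, 47.3 and 44.5 FPKM in siScrambled and at 34.5, 36.0 and 35.7 FPKM in siPFKFB3. All siPFKFB3 samples lay below all controls, and the gene fell by 0.39 on the log2 scale (SE 0.04; limma, adjusted p = 0.000101). Its level was 34.5% of that of Il6st in siScrambled and 25.5% in siPFKFB3, and 17.9 and 13.8 times that of Il6ra. Il11ra2, a close copy of Il11ra1 with which reads may be shared, stood at 0.692, 0.474 and 0.514 FPKM and at 0.247, 0.0701 and 0 FPKM, and exons of Ccl27a overlap Il11ra1 on the opposite strand, so its value carries that uncertainty. Il27ra, the receptor of interleukin-27, fell by 0.32 from 1.22 ± 0.195 to 0.783 ± 0.154 FPKM (SD, n = 3 each; limma, adjusted p = 0.0414), a call that ended in 6 alternatives, among them leaving out siScrambled replicate 1 or 2 or siPFKFB3 replicate 1 or 2 (limma, adjusted p of 0.0758 to 0.133).

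Of 14 Jak, Stat and adaptor genes 4 rose and 2 fell, 42.9% beside the 36.3% of all tested genes. Stat2, a factor of interferon signalling, had the largest change of these, from 20.9 ± 1.77 to 37.8 ± 6.17 FPKM (SD, n = 3 each), and rose by 0.82 on the log2 scale (limma, adjusted p = 0.00168). In the same samples 8 of 9 tested interferon response genes rose, where 15.8% of all tested genes were called higher. The summed FPKM of that list ran from 209 to 325 in siScrambled and from 698 to 964 in siPFKFB3. The part of the interferon response in the Stat2 change was not tested. Pik3r1, a regulatory subunit of PI3-kinase, rose by 0.47 from 40.9 ± 2.03 to 56.8 ± 0.927 FPKM (limma, adjusted p = 3.65e-05), and Sos1, the exchange factor that couples receptors to Ras, fell by 0.49 from 6.38 ± 0.270 to 4.26 ± 0.377 FPKM (limma, adjusted p = 0.000630). Ptpn11, the phosphatase that links gp130 to Ras, rose by 0.35 from 40.1 ± 1.20 to 51.2 ± 1.42 FPKM (limma, adjusted p = 0.000137). The others called, named after their values were seen, were Stat5b (0.33) and Jak1 (−0.15), the kinase on which gp130 chiefly relies, which went from 58.9 ± 1.57 to 53.0 ± 0.745 FPKM (limma, adjusted p = 0.00887).

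Inhibitors and shedding enzymes gave 2 higher and 2 lower of 14 tested, 28.6% beside the 36.3% of all tested genes. Usp18, an interferon-induced inhibitor of the interferon receptor, rose by 1.55 from 9.85 ± 3.16 to 29.97 ± 4.98 FPKM (SD, n = 3 each; limma, adjusted p = 0.0108), alongside the interferon list above. Ptpn1, a phosphatase that acts on Jak kinases, rose by 0.27 (limma, adjusted p = 0.00334), and Socs5 fell by 0.17 (limma, adjusted p = 0.0127). Adam17, the protease that sheds the interleukin-6 receptor, fell by 0.14 from 20.4 ± 0.811 to 18.4 ± 0.0828 FPKM (limma, adjusted p = 0.0385); the call was lost in 10 of 16 alternatives, among them TPM, median-ratio and quantile scaling (limma, adjusted p = 0.0793, 0.0694 and 0.0546) and without any one of siScrambled replicates 1 and 2 and siPFKFB3 replicates 1, 2 and 3 (limma, adjusted p of at least 0.0769).

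Of 20 tested Stat3 target genes 2 rose and 5 fell, against 36.3% of all tested genes called, with a median of −0.08. The cyclin D1 gene Ccnd1 went from 157 ± 4.07 to 77.9 ± 2.14 FPKM (SD, n = 3 each), a log2 fold change of −1.01 (limma, adjusted p = 2.57e-07). Timp1, an inhibitor of matrix proteases, fell by 0.48 from 388 ± 21.6 to 278 ± 14.5 FPKM, and Serpina3n, an acute-phase protease inhibitor, by 0.34 from 196 ± 6.47 to 155 ± 5.29 FPKM (limma, adjusted p = 0.0001 and 0.000104). Icam1, an adhesion molecule that NF-kB also controls, rose by 0.46 from 24.6 ± 0.585 to 34.2 ± 0.869 FPKM (limma, adjusted p = 3.15e-05). The other called targets, named after their values were seen, were Hif1a (0.30), Junb (−0.22) and Tnfaip3 (−0.25); the call of Tnfaip3 ended in 6 alternatives, among them without any one library other than siPFKFB3 replicate 2 (limma, adjusted p of 0.0598 to 0.0949). All 8 tested cell cycle genes also fell in these samples, where 20.5% of all tested genes were called lower. The summed FPKM of that list ran from 152 to 160 in siScrambled and from 88.0 to 90.0 in siPFKFB3. The part of the cell cycle genes in the fall of Ccnd1 was not tested.

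Of 15 tested regulators of Il6 transcription and mRNA decay 2 rose and 3 fell, 33.3% beside the 36.3% of all tested genes. Zfp36, which binds AU-rich elements and speeds the decay of cytokine mRNAs, stood at 15.5, 17.5 and 15.7 FPKM in siScrambled and at 9.99, 9.78 and 11.3 FPKM in siPFKFB3. It fell by 0.60 on the log2 scale (SE 0.07; limma, adjusted p = 0.000120), while its relative Zfp36l1 rose by 0.36 from 40.3 ± 1.48 to 52.0 ± 2.08 FPKM (SD, n = 3 each; limma, adjusted p = 0.000202). Nfkb1 and Nfkb2, precursors of NF-kB subunits, fell by 0.25 and 0.27 (limma, adjusted p = 0.00367 and 0.00293). Ptgs2, an inducible cyclooxygenase named after its value was seen, was called by a small margin (0.20; limma, adjusted p = 0.0430). The call was lost in 8 of 15 alternatives. It ended without any single library other than siScrambled replicate 2 (limma, adjusted p of 0.0622 to 0.121). Lower filters on low values (0.0504 and 0.0551) and the replicate block (0.0606) ended it too. The number of genes of this list called higher ran from 1 to 3 over the alternatives. Il1b and Tnf, cytokines that induce Il6, were listed at 0 in all 6 samples.

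**Figure D4:**
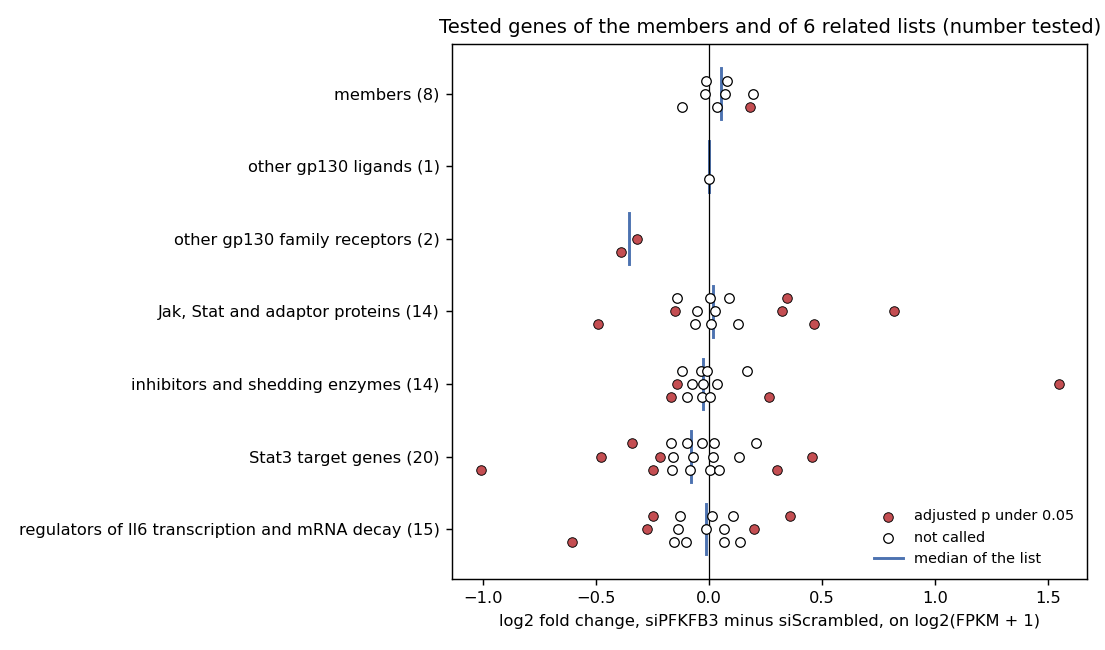
Log2 fold change on log2(FPKM + 1) (horizontal axis) of each tested gene of the members and of the 6 related lists, 1 point a gene, filled where adjusted p was under 0.05, with a line at the median of each list. The tested members lie between −0.12 and 0.20, whereas single genes of the other lists reach −1.01 (Ccnd1) and 1.55 (Usp18).

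The 9 smooth muscle markers ran from Acta2, at 1340 ± 39.0 and 1700 ± 29.9 FPKM (SD, n = 3 each), and Tagln, at 717 ± 10.1 and 680 ± 19.0 FPKM, down to Des, at 1.24 ± 0.161 and 0.830 ± 0.165 FPKM. Of these 3 rose (Acta2, Mylk and Cnn1) and 0 fell, 33.3% beside the 36.3% of all tested genes. The median of the list was −0.08. Tagln, Myh11, Smtn, Des and Myocd, none of them called, lay below every control in all siPFKFB3 samples, and Acta2, Mylk and Cnn1 above. Of all tested genes 27.7% lay below and 21.8% above in this way. Of macrophage and leukocyte markers, cells that can make Il6, limma called 0 of 3 tested (1 at an unadjusted p under 0.05, Lyz2). Cd14 stood at 1.04 ± 0.493 and 1.52 ± 0.322 FPKM and Cd68 at 1.21 ± 0.170 and 0.815 ± 0.431 FPKM (SD, n = 3 each; limma, adjusted p = 0.205 and 0.165), with overlapping groups in both. Ptprc stood at 0 to 0.0179 FPKM and Aif1 at 0, whereas Csf1r stood at 0.405 to 0.806 FPKM and Laptm5 at 0.282 to 0.756 FPKM over the 6 samples. Adgre1 was at 0 in siScrambled and at 0.0243 to 0.0690 FPKM in siPFKFB3. The summed list ran from 15.5 to 15.9 FPKM in siScrambled and from 16.7 to 17.1 FPKM in siPFKFB3. Most of it was Lyz2 (means of 12.2 and 13.4 FPKM), which passed the test under 3 scalings. Of 8 endothelial markers 1 was tested, the transcription factor Erg. It rose by 0.54 (limma, adjusted p = 3.27e-05), where 15.8% of all tested genes were called higher. Tek, under the mean needed for a test, stood at 0.974, 0.859 and 0.968 FPKM in siScrambled and lower, at 0.431, 0.567 and 0.360 FPKM, in siPFKFB3 (exact permutation p = 0.1, the smallest that 3 against 3 samples allow), and Pecam1 did not exceed 0.106 FPKM. Egfl7, also under the mean needed for a test, went the other way from Tek, with overlapping groups. It stood at 0.281, 0.613 and 0.451 FPKM in siScrambled and at 0.681, 1.19 and 0.498 FPKM in siPFKFB3 (exact permutation p = 0.2). Of 8 adventitial fibroblast markers, all tested, 5 fell and 1 rose, 75.0% beside the 36.3% of all tested genes. Cd34 stood at −1.05 and Clec3b at −0.92 on the log2 scale. The summed list ran from 842 to 870 FPKM in siScrambled and from 746 to 776 FPKM in siPFKFB3. The part of these cell types in the levels of the 10 members was not tested. In such bulk samples fewer cells of a type and less RNA per cell cannot be told apart.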

How the data were processed

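The 6 libraries were mRNA libraries from TRIzol-extracted RNA, per the labels' protocols. The submitters' processing notes name HISAT2 and the build GRCm38 (mm10); no source used here gives the aligner version, the counting tool, the annotation or the strand setting. What the authors deposited is a single FPKM table, so headed in the file, with 6 sample columns. Its 24970 rows hold 22036 Ensembl genes, 22022 of which have a symbol in the reference. Fragment numbers are not part of FPKM, so counting intervals are not given. Among the 2934 new-gene rows the value above 0 seen most often was 0.139 to 0.173 FPKM, depending on the library, which puts relative depths within 1.24 times of each other, as a rough estimate.

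The test was limma 3.58.1 (R 4.3.3) with trend and robust eBayes on log2(FPKM + 1), pseudocount 1, two-sided with Benjamini-Hochberg adjustment, over the 11240 genes whose mean reached 1 FPKM; the step was tested on simulated data. The members and lists were chosen with earlier results of these data known. Named genes are the members, Pfkfb3 and, per list, up to 4 called genes with the largest change (2 for marker lists), or the 2 highest if none was called; the other list genes named, among them those at or near 0, Il11ra2, Tek and uncalled markers, were chosen after their values were seen. Some genes of the lists are not reported here and were left out of the lists' counts; they stayed in the fit. Alternatives were other pseudocounts, filters and scalings, plain eBayes, the replicate number as a block, and leaving out each sample. Promoters are RefSeq's (GRCm38.p6) and positions GENCODE M21's. Exons of several other named list genes, among them Il27ra, Adam17, Ccnd1 and Jak1, overlap those of a gene on the opposite strand. Those of Hif1a also overlap Gm49321 on the same strand. The part of such overlaps in their values was not tested. Figures were drawn with matplotlib 3.10.9.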

Additional observations from a re-analysis of the deposited data

How the results depend on the processing

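Il6, Il6st, Osmr, Stat3 and Socs3 kept their direction and stayed uncalled in all alternatives run. Il11 and Ctf1 stayed uncalled in the 2 filters that admit them. A filter cannot alter their log2 fold change, and they were run in no other alternative, so the stability of their direction was not tested. Lifr kept its direction and lost its call at 0.182 without a filter, at a mean of 0.1 FPKM and with the replicate block (adjusted p = 0.0694), where members called higher numbered 0; leaving out single samples gave 0.143 to 0.222 and 0 to 1 members called. Lif turned to 0.005 under TPM, 0.006 under median-ratio scaling and 0.022 under quantile normalization, and ran from −0.073 to 0.021 without single samples. Il6ra turned to 0.001 and 0.015 under the last 2 scalings and ran from −0.044 to 0.019. Without single samples Clcf1 ran from −0.087 to 0.062. The cause of these turns was not tested. Scalings moved the median of all genes from −0.023 to between −0.004 and −0.002. Same-numbered samples of the 2 groups correlated at −0.114, 0.06 and 0.055 in their deviations from the group means, and differently numbered ones at −0.16 to 0.12. No effect shared by replicate number was seen, which cannot tell whether samples were paired in the experiment. The block called 1680 genes higher and 2227 lower, against 1775 and 2304. Counts over the 6 lists stayed at 9 to 12 higher and 11 to 15 lower. Fragment numbers are unknown, which limits Il11 and Ctf1 most.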
